A study of Homo sapiens and Mus musculus with 10 samples.

Results

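Transcripts of 38 genes that act in G2 phase and mitosis were followed in HEK293T cells, a human embryonic kidney line, by RNA sequencing after removal of ribosomal RNA. The genes were taken from a list of names: any row of the 2 deposited HEK293T count tables whose symbol equalled a listed name was a member. The first table (the stress set, 16120 rows) held 37 of the 38 genes, and the second (the genotype set, 11976 rows) held all 38. For 32 genes both tables count the same transcript, and these 32 are among the 10368 transcripts that could be tested across tables. The stress set holds 3 wild-type (WT) libraries, 1 each of glucose deprivation for 24 h (GD), 300 nM thapsigargin for 6 h (TG) and mock treatment. TG empties calcium from the endoplasmic reticulum (ER) by blocking its pump and so causes ER stress, and the submitters describe GD as metabolic oxidative stress. The genotype set holds 4 libraries, 1 each of UFD1s-deficient GD, WT GD, UFD1s-deficient mock and WT mock. UFD1 works with the ATPase VCP to extract ubiquitinated proteins. The labels give the deficient line no more than its genotype name, and whether it is 1 clone is not stated in the labels.

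The genes of this group are transcribed late in the cell cycle. Cyclin B with its kinase CDK1 starts mitosis, kinesins and their partners build the spindle, and the spindle checkpoint holds back the anaphase-promoting complex (APC/C) until chromosomes are attached. In human cells much of this transcription runs through B-MYB and FOXM1 with the MuvB core, which binds a promoter element called CHR (core TTTGAA), and through NF-Y, which binds CCAAT boxes.

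The promoters show what the members share beyond their names. RefSeq windows on GRCh38.p14, running 250 bases before to 50 bases after an annotated start, were found for 31 genes (41 windows). UBE2C, FOXM1, TTK, BIRC5, TPX2, BUB3 and AURKA had no window in the table used. CCAAT, searched on both strands as CCAAT or ATTGG, was in 78% of the 41 member windows and in 34.6% of all 35116 windows. TTTGAA, searched as TTTGAA or TTCAAA, was in 58.5% of member windows and in 15.2% of all windows. Both were in 51.2% of member windows, against 5.9% of all, and the motifs were counted separately, so that matches may share bases. At least 1 window held both motifs in 19 genes, and KIF2C and CENPE held neither. Such a match is a description of letters and not a mapped site. The 120 bases before the start are printed for KIF20A, CCNB1, KIF11 and CDC25C, the 4 genes that fell in GD over all libraries. They are printed too for CCNB2 and PLK1, which were not called there. The GD response differed between sets for CCNB2 and PLK1, and also for KIF20A, CCNB1 and KIF11. Capitals mark the CCAAT and TTTGAA matches, each sequence reads 5′ to 3′ on the gene's strand, and CDC25C is shown by 1 of its 4 windows, one that holds both motifs. The intervals are chr5:138178992-138179111 (plus strand) for KIF20A, chr5:69167030-69167149 (plus) for CCNB1, chr10:92593010-92593129 (plus) for KIF11, chr5:138331805-138331924 (minus) for CDC25C, chr15:59105026-59105145 (plus) for CCNB2 and chr16:23678769-23678888 (plus) for PLK1.
KIF20A: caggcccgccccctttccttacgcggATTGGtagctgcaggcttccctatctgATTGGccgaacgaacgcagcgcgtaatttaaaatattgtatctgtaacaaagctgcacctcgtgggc
CCNB1: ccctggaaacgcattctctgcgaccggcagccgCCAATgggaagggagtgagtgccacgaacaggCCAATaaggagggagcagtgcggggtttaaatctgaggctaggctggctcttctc
KIF11: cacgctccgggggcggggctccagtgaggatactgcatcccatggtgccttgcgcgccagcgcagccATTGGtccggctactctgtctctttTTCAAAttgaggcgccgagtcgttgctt
CDC25C: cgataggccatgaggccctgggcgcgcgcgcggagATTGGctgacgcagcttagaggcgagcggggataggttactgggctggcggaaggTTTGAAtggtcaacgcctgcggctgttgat
CCNB2: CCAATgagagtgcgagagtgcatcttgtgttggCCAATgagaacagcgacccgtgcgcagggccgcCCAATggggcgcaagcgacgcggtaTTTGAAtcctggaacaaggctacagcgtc
PLK1: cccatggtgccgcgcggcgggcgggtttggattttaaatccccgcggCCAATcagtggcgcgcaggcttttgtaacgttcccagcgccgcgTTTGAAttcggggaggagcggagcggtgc
The printed bases of KIF20A and CCNB1 hold 2 CCAAT matches each and no TTTGAA. CCNB2 holds 3 CCAAT matches and 1 TTTGAA, and KIF11, CDC25C and PLK1 hold 1 of each.

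The libraries differ in depth and in the room these transcripts take. Total counted reads were 12771607 in GD, 19024327 in TG and 16990125 in mock of the stress set, and 11461365 to 13110714 in the genotype set. Of the reads on transcripts shared by both tables, the 32 members took 0.637% in GD, 0.653% in TG and 0.909% in mock of the stress set. In the genotype set they took 0.741% for deficient and 0.754% for WT cells in GD, and 0.757% for deficient and 0.747% for WT cells in mock. VIM, NEFL and LIN28B, known in HEK293T, had at least 1146 reads in every library, KRT8, KRT18 and NEFM had at most 77, and PAX2 had no row. Markers of blood, liver and endothelium (ALB, CDH5, LYZ) had 0 to 8 reads or no row. The ribosomal precursor RNA45SN5 took 10.7% of reads in GD, 8.31% in TG and 7.73% in mock of the stress set, and its part in the results was not tested.

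A deposited row is 1 RefSeq transcript and need not be the whole gene. Of the 32 shared members, 20 had a mean of at least 1000 reads over the 6 mock and GD libraries (1301 to 19700), and 12 had a mean of 22.5 to 235. RefSeq lists a single transcript for 12 of the 20 well-counted genes and for 0 of the other 12. AURKA, AURKB, BIRC5, CDC25B, CDC25C, ECT2 and HMMR had at most 97 reads in any library, so what follows for them is about a minor counted row. CDK1, the kinase partner of cyclin B, shows how far this goes: NM_001170406.1 had 0, 2 and 2 reads in GD, TG and mock of the stress set, whereas NM_001786.4 had 1608 to 2078 reads in the genotype set. NEK2, TTK, NUSAP1 and UBE2C likewise had 0 to 23 reads for the stress-set row and 52 to 400 for the genotype-set row. Those 5 genes and FOXM1, which is in the genotype table alone, were left out of every test across tables.

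**Figure D1:**
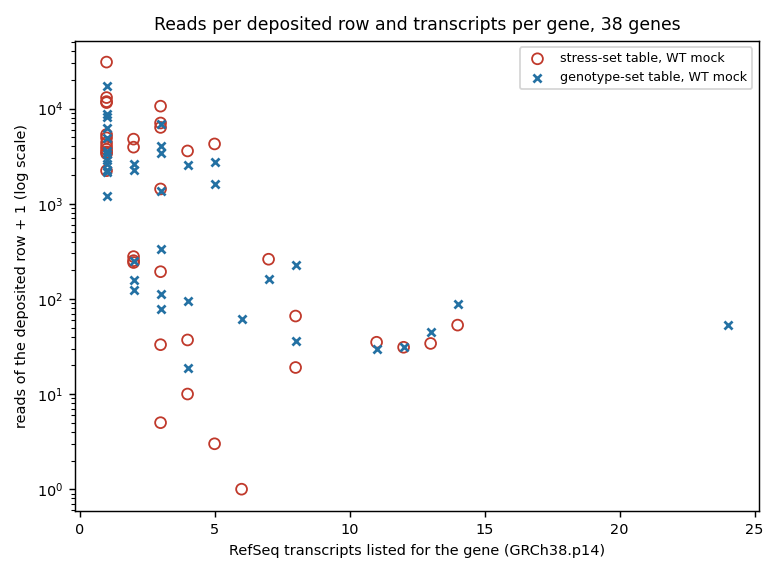
Reads of each member's deposited row in the WT mock library of each table (log scale, 1 added) against the number of RefSeq transcripts listed for the gene. Rows of genes with 1 listed transcript hold over 1000 reads in both tables, and rows of genes with 6 or more hold at most 260.

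The first comparison asked what glucose deprivation did to these transcripts in the stress set, where 28 of the 32 shared members were below mock. Their median log2 ratio of scaled reads was -0.47, against -0.0071 for all shared transcripts. With 1 library per condition there is no test, so a row counted as changed when its log2 ratio, taken with a prior count of 5 that pulls low rows towards 0, reached 2-fold and it had 50 or more reads in the higher library. Each fold printed compares scaled reads without the prior count and carries an exact 95% interval that covers counting error only. By this rule 3 members were lower and 0 higher, where 3.57% of all 8904 rows with enough reads were lower and 3.73% higher. Of the 37 rows, 27 had enough reads for the rule.

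Among the genes that start mitosis, CCNB1 (cyclin B1) stood at 243 CPM (read counts scaled to library size with TMM factors) in GD and 390 in mock. CCNA2 (cyclin A2) stood at 180 CPM in GD and 295 in mock. CCNB2 (cyclin B2) stood at 83.3 CPM in GD and 123 in mock. All 3 cyclins were thus lower in the GD library, by log2 ratios of -0.68, -0.71 and -0.56, without reaching 2-fold. CDC25C, a phosphatase that activates CDK1, had 10 reads in GD and 65 in mock, 4.41-fold lower (interval 2.25 to 9.62). The related CDC25B ran the other way, with 44 reads in GD and 30 in mock, under the read minimum. PLK1, a kinase needed from mitotic entry to cytokinesis, stood at 138 CPM in GD and 193 in mock. AURKA, a kinase of the centrosome and spindle, had 22 reads in GD and 33 in mock, a log2 ratio of -0.021.

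The checkpoint and anaphase genes moved in a narrow band with 1 exception. Log2 ratios of GD over mock were -0.58 for BUB1B, -0.55 for MAD2L1 and -0.52 for BUB1, which all serve the spindle checkpoint. CDC20, the APC/C activator the checkpoint restrains, was at -0.46, and PTTG1 (securin), which APC/C destroys at anaphase, at -0.41. BUB3, which also acts with BUB1 and BUB1B, was at 293 CPM in GD and 264 in mock, a log2 ratio of 0.15. BUB3 was thus the only one of the 20 well-counted members above its mock library.

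Kinesins and spindle genes spread more widely. KIF20A, a kinesin of the central spindle in late mitosis, stood at 99.8 CPM in GD and 222 in mock, 2.22-fold lower (interval 2.09 to 2.37). Its GD library was the lowest of all 7. KIF11 (Eg5), which pushes spindle poles apart, was at a log2 ratio of -0.57, and KIF4A, which binds chromosomes, at -0.53. KIF2C, which shortens microtubules, was at -0.027 and KIF20B, a kinesin of cytokinesis, at -0.083, both close to mock. TPX2, the AURKA activator, was at -0.63, ANLN (anillin), a scaffold of the cleavage furrow, at -0.38, and PRC1, which bundles midzone microtubules, at -0.35. CENPE and CENPF, of the kinetochore, were at -0.46 and -0.28, and the centromeric histone CENPA at -0.16. TOP2A, the topoisomerase that untangles chromosomes, was at -0.25, with 17523 reads in GD and 30782 in mock. The counted row of MKI67 (Ki-67) had 28 reads in GD and 240 in mock, 5.81-fold lower (interval 3.92 to 8.93). KIF23 had 155 reads in GD and 260 in mock, a scaled log2 ratio of -0.18. HMMR, a spindle protein, had 15 reads in GD and 36 in mock (log2 ratio -0.59). AURKB, the kinase of the chromosomal passenger complex, had 6 reads in GD and 34 in mock (-1.46). Its partner BIRC5 (survivin) had 31 reads in GD and 32 in mock, which after scaling is a log2 ratio of 0.45. ECT2, which acts in cytokinesis, had 40 reads in GD and 52 in mock, and its scaled log2 ratio was 0.17. These thinly counted rows show no common level against mock. In bulk RNA, fewer cells in G2 and mitosis and less of each RNA per cell cannot be told apart.

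**Figure D2:**
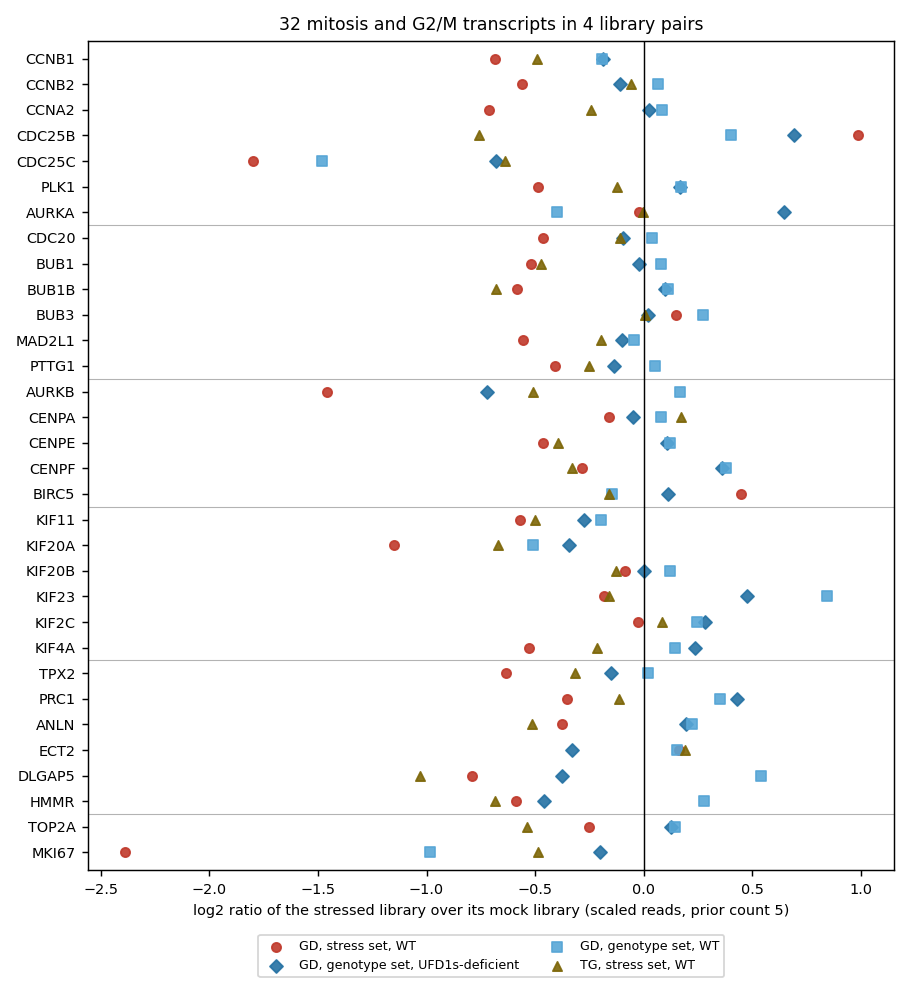
Log2 ratio of each stressed library over its mock library for the 32 shared members, ordered by role (grey lines), with 1 point for each of the GD pairs and the TG pair. Stress-set GD lies left of 0 for 28 members, TG for 28, deficient GD for 16 and genotype-set WT GD for 8.

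Glucose deprivation in the genotype set did not look the same. The median log2 ratio of the 32 shared members was -0.0074 in deficient cells, with 16 above 0 and 16 below, and 0.12 in WT cells, with 24 above 0 and 8 below. By the rule of 2-fold and 50 reads, 0 members were lower in either genotype, and 0 were higher. Of all rows, 4.17% of 10054 were lower and 2.14% higher in deficient cells, and 4.42% of 9927 were lower and 2.39% higher in WT cells. MKI67 lay just short of the rule in WT cells, at a log2 ratio of -0.98, and its scaled reads without the prior count were 2.04-fold lower (interval 1.53 to 2.76). CENPF stood at 786 CPM in deficient GD and 611 in deficient mock. In WT cells it stood at 904 CPM in GD and 695 in mock. Both GD libraries were thus above both mock libraries, whereas stress-set GD at 538 CPM was below its mock at 655. KIF23, a kinesin of the central spindle, showed the same order in the genotype set, with 222 reads in deficient GD, 182 in deficient mock, 256 in WT GD and 161 in WT mock. UBE2C, the ubiquitin carrier of APC/C, had 338 reads in deficient GD and 256 in deficient mock, and 358 in WT GD and 226 in WT mock. Its log2 ratios were 0.59 in deficient and 0.85 in WT cells, and no stress-set value of that transcript was analysed here. CDK1 was at 0.0050 in deficient and 0.20 in WT cells. NEK2, a centrosome kinase, was at 0.082 and 0.27, TTK, a checkpoint kinase, at 0.18 and 0.080, and NUSAP1, a microtubule binder, at 0.40 and -0.0080, each given for deficient and then WT cells.

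Some genes were lower in GD in all 3 pairs, and the share of all transcripts with this pattern was not counted. CDC25C had 21 reads in deficient GD and 42 in deficient mock, and 8 in WT GD and 35 in WT mock. KIF20A stood at 199 CPM in deficient GD and 253 in deficient mock, and at 160 in WT GD and 228 in WT mock. CCNB1 stood at 293 CPM in deficient GD and 334 in deficient mock, and at 280 in WT GD and 319 in WT mock. KIF11 stood at 455 CPM in deficient GD and 551 in deficient mock, and at 432 in WT GD and 495 in WT mock. For these 4 genes every GD library was below the mock library of its own set and genotype. MKI67 was too, with 133 reads in deficient GD and 177 in deficient mock, and 67 in WT GD and 157 in WT mock. MAD2L1 was also lower in all 3 pairs, though close to mock in the genotype set. It stood there at 207 CPM in deficient GD and 221 in deficient mock, and at 198 in WT GD and 204 in WT mock.

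The test over all 3 pairs called the first 4. edgeR's quasi-likelihood test took the 6 libraries of both treatments, fitted terms for set, genotype and treatment, and adjusted p-values over all 10368 shared transcripts. In GD 4 of 32 members fell and 0 rose at an adjusted p under 0.05, which is 12.5% of them, where 11.1% of all transcripts fell and 9.75% rose. The members' share lower is thus near the background. KIF20A fell by 0.67 on the log2 scale (SE 0.143, n = 3 pairs, edgeR adjusted p = 0.0113). CDC25C fell by 1.57 (SE 0.440, edgeR adjusted p = 0.0330), KIF11 by 0.35 (SE 0.0989, edgeR adjusted p = 0.0333) and CCNB1 by 0.36 (SE 0.113, edgeR adjusted p = 0.0491). MKI67 had a log2 change of -1.17 and was not called (edgeR adjusted p = 0.0506), nor was CDC25B at 0.77 (edgeR adjusted p = 0.118). The members' median log2 change was -0.11, against -0.019 for all transcripts. Each pair is 1 mock and 1 GD library, so leaving out either takes the whole pair out of the GD estimate. KIF20A kept its call without any 1 library, but without the stress-set mock or GD its change shrank to -0.43 and -0.42, KIF11's to -0.23 in both fits and CCNB1's to -0.19 in both. CDC25C lost it without the stress-set mock, the genotype-set WT mock, the genotype-set WT GD or either deficient library (edgeR adjusted p 0.0586 to 0.121 over these 5). KIF11 lost its call without the genotype-set WT mock, WT GD, or either deficient library, and CCNB1 without the genotype-set WT GD or either deficient library. CCNB1 also lost it with RLE size factors (edgeR adjusted p = 0.0586). Without the genotype-set WT GD, the deficient mock or the deficient GD, 2 members fell and 0 rose, where 1147, 504 and 494 transcripts were called in all. Without the stress-set mock 7 members rose and 3 fell among 3806 transcripts called, and without the stress-set GD 8 rose and 5 fell among 4039.

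In the genotype set alone, where 39.0% of all transcripts were called (19.1% higher, 19.9% lower), 12 of the 32 members passed edgeR's test. That is 37.5% of them (21.9% higher, 15.6% lower), near the background. The rises were small: CENPF rose by 0.37, KIF2C by 0.27, ANLN by 0.21, KIF4A by 0.19, PLK1 by 0.17 and TOP2A by 0.14 on the log2 scale, and KIF23 by 0.68. KIF20A (-0.42), KIF11 (-0.23), CCNB1 (-0.19), MKI67 (-0.59) and CDC25C (-1.27) fell, with edgeR adjusted p of 8.82e-15 to 0.0445 over the 12. This fit has 4 libraries and 1 residual degree of freedom, so its error is how far the GD response differs between genotypes, pooled over transcripts. A call therefore does not rest on a gene's own spread. MKI67 was at a log2 ratio of -0.20 in deficient and -0.98 in WT cells, and CDC25C at -0.68 and -1.48.

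**Figure D3:**
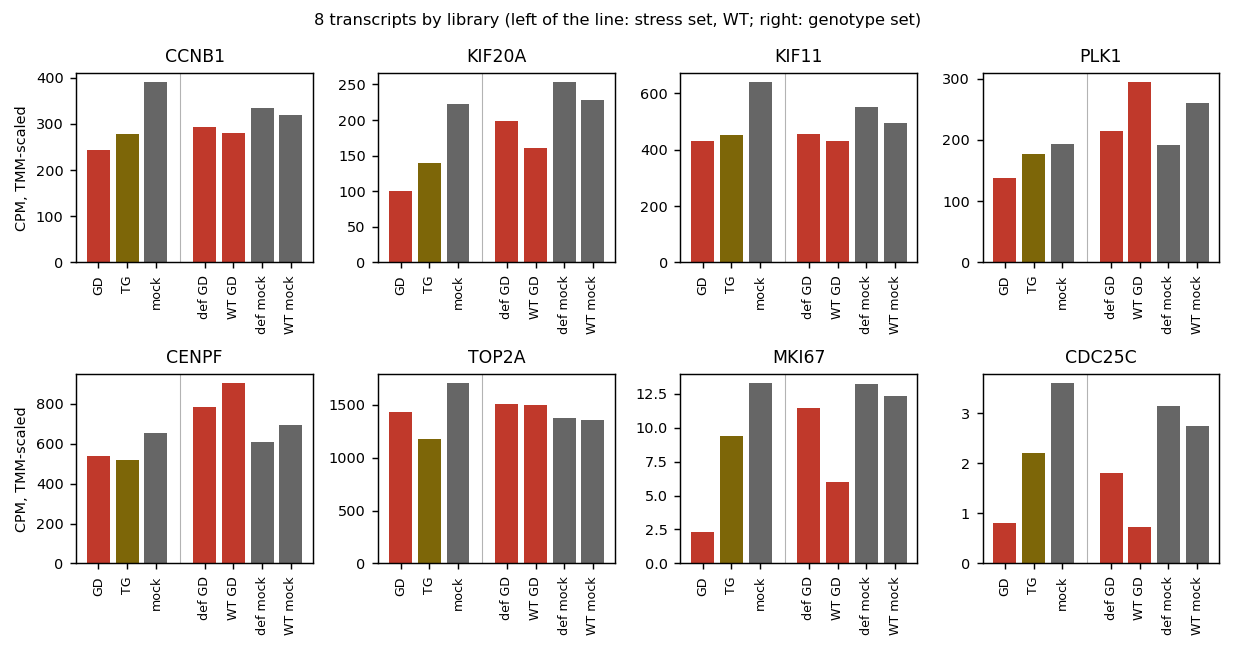
CPM (TMM-scaled) of 8 members in each of the 7 libraries, with bars from 0 and 1 library per bar (def: UFD1s-deficient). CCNB1, KIF20A, KIF11, MKI67 and CDC25C are lower in GD than in the mock of the same genotype in both sets, whereas PLK1, CENPF and TOP2A are lower in stress-set GD and higher in genotype-set GD.

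The difference between the sets was tested directly. A set by treatment term in the edgeR fit gives the GD response of the stress set minus that of the genotype set, and takes the response as alike in both genotypes. It was below 0 and called for 17 of 32 members and above 0 and called for none, or 53.1% of the members, where 5.63% of all transcripts were called lower and 4.81% higher. The members' median difference was -0.58 on the log2 scale, against -0.0083 for all 10368. Among the 20 well-counted members 16 were called and all 20 were below 0. The exceptions among the well-counted were BUB3 (-0.012, SE 0.112), KIF20B (-0.16, SE 0.105), KIF2C (-0.31, SE 0.105) and PTTG1 (-0.38, SE 0.143).

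By role, the calls covered 4 of 7 entry kinases and cyclins, 4 of 6 checkpoint and anaphase genes, 2 of 5 centromere genes, 3 of 6 kinesins, 2 of 6 spindle and cytokinesis genes and both chromosome genes. CCNA2 differed by -0.78 (SE 0.09998, edgeR adjusted p = 2.12e-05), with log2 GD ratios of -0.71 in the stress set, 0.026 in deficient and 0.084 in WT cells. CENPF differed by -0.67 (SE 0.0842, edgeR adjusted p = 1.67e-05), with ratios of -0.28, 0.36 and 0.38 in the same order. KIF20A and KIF4A each differed by -0.74, BUB1B by -0.71, PLK1 by -0.68, ANLN and CENPE by -0.60 and TPX2 by -0.59. KIF20A was below mock in every pair and further below in the stress set, while CENPF and PLK1 lay on opposite sides of their mock in the sets. MKI67 differed by -1.96 (SE 0.455, edgeR adjusted p = 0.00680), on 28 to 240 reads. The test rests on 1 GD and 1 mock library of the stress set and on 1 residual degree of freedom. That degree comes from the genotype set, where it is the difference of the GD response between genotypes. The p-values thus hold no measure of how the GD response would vary between repeats of the stress set. DESeq2 with the same terms called 12 of the 17, not CCNB2, CDC20, MAD2L1 or KIF11, and gave MKI67 no adjusted p. The labels name no difference between the sets beyond genotype and TG, so handling, culture and library preparation cannot be told apart from the set.

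**Figure D4:**
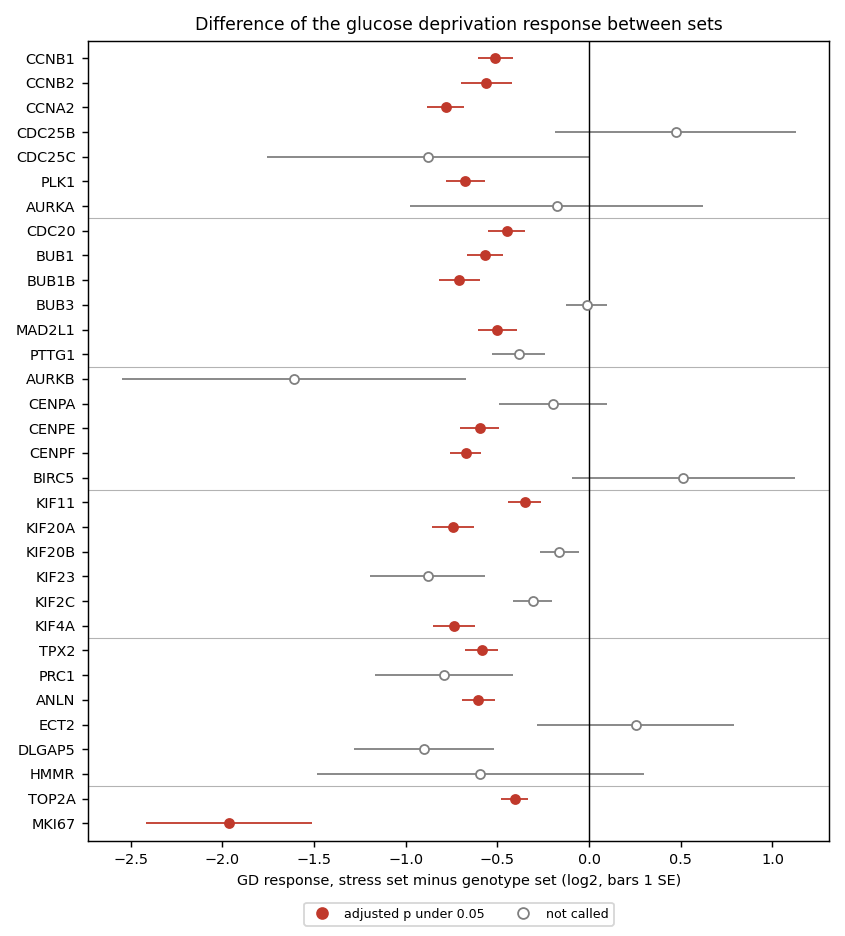
GD response of the stress set minus that of the genotype set for the 32 shared members (log2, bars 1 SE), with filled points for edgeR adjusted p under 0.05. The 17 filled points lie between -0.35 and -1.96, and BUB3 lies at -0.012.

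The mock libraries of the sets also differed from each other. In WT mock, the members' median log2 ratio of the stress set over the genotype set was 0.31, with 23 of 32 above 0, and in WT GD it was -0.31, with 26 below 0. All shared transcripts had medians of 0.014 in mock and -0.015 in GD. PLK1 was lower in the stress set in both, at -0.24 in mock and -0.92 in GD, and BUB3 higher in both, at 0.78 and 0.64. CCNB1 was at 0.48 in mock and -0.033 in GD.

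Few members passed 2-fold in TG. The median log2 ratio of TG over mock for the 32 shared members was -0.28, against -0.0043 for all shared transcripts, and 28 were below 0. By the rule 1 member was lower and 0 higher, where 3.31% of 9116 rows were lower and 4.73% higher. That member was DLGAP5 (HURP), which stabilises spindle fibres, with 137 reads in TG and 277 in mock, 2.09-fold lower (interval 1.70 to 2.58). Next among rows with at least 50 reads were BUB1B at 129 CPM in TG and 206 in mock, and KIF20A at 139 in TG and 222 in mock. TOP2A stood at 1175 CPM in TG and 1704 in mock, the largest read count of any member. Log2 ratios of TG over mock were -0.52 for ANLN, -0.50 for KIF11, -0.49 for CCNB1 and -0.47 for BUB1. CCNB2 (-0.056), CDC20 (-0.11) and PLK1 (-0.12) stayed near mock, and BUB3 was at 0.0046. KIF2C at 0.087, CENPA at 0.17 and ECT2 at 0.19 were above it. GD and TG share their mock library, so likeness between them is not independent. DLGAP5 stood at 8.74 CPM in GD, 7.35 in TG and 15.3 in mock. With 1 TG library there is no replicate check.

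The second question was whether UFD1s deficiency moved these genes. It was called for 0 of 32 members by edgeR in the 6 libraries, where 1.11% of all 10368 transcripts were called (115, with 1470 at an unadjusted p under 0.05). A single member, PLK1, had an unadjusted p under 0.05, with a log2 difference of -0.45 (SE 0.161, edgeR adjusted p = 0.235), and DESeq2 called 0. The error of this fit includes the set difference of the GD response, which was called for 17 members. In the genotype set alone the SE of PLK1 was 0.0611. The 0 calls therefore do not show that deficiency left the members unchanged. PLK1 stood at 215 CPM in deficient and 294 in WT cells in GD, and at 191 in deficient and 261 in WT cells in mock. Within the genotype set each deficient library was below both WT libraries, whereas the stress-set WT libraries stood at 138 CPM in GD and 193 in mock. CDC25B stood at 76 reads in deficient and 36 in WT cells in GD, and at 52 in deficient and 30 in WT cells in mock, a log2 difference of 0.87 (SE 0.389, edgeR adjusted p = 0.355). In GD its scaled reads without the prior count were 2.02-fold higher in deficient cells (interval 1.34 to 3.09), and its log2 ratio with it was 0.93, short of the rule.

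Within the genotype set alone, where 18.7% of all transcripts were called (8.83% higher, 9.91% lower), 5 members passed edgeR's test. PLK1 (-0.45), ANLN (-0.26) and CENPF (-0.19) were lower in deficient cells, and KIF20A (0.23) and BUB3 (0.21) higher, with edgeR adjusted p of 1.83e-11 to 0.00947. ANLN stood at 513 CPM in deficient and 622 in WT cells in GD, and at 447 in deficient and 532 in WT cells in mock. The same number, 5, was called in the 6-library fit without the stress-set mock (1655 transcripts in all) or without the stress-set GD library (1938 in all), so the members' share is not above that of all transcripts.

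FOXM1, the transcription factor that drives many of the other members, was the only member past the rule of 2-fold and 50 reads between genotypes. Its counted row (NM_202002.2) had 0 reads in deficient and 52 in WT mock, which is at least 18.2-fold lower against a floor of 3 counts in the deficient library, taking the 52 reads as counted. With counting error in both libraries the exact 95% lower bound is 14.3-fold. In GD it had 16 reads in deficient and 29 in WT cells. The authors' deposited table gives FOXM1 a log2 ratio of -5.73 (p = 2.96e-10) in mock and -0.914 (p = 0.164) in GD. By the rule 1.21% of 10121 rows were lower and 1.48% higher in mock. In GD 0 members passed it, where 1.42% of 9608 rows were lower and 1.38% higher. RefSeq lists 24 transcripts for FOXM1, so the row says little about the gene's total RNA. In mock the median log2 ratio of deficient over WT cells was 0.11 over the 32 shared members, with 23 above 0, and in GD it was 0.017. In the authors' deposited table MKI67 was the only member under 0.05 in GD (log2 0.927, p = 0.0482), and FOXM1 the only one in mock. The share of all rows under 0.05 by the authors' p was not counted, so these counts have no background.

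**Figure D5:**
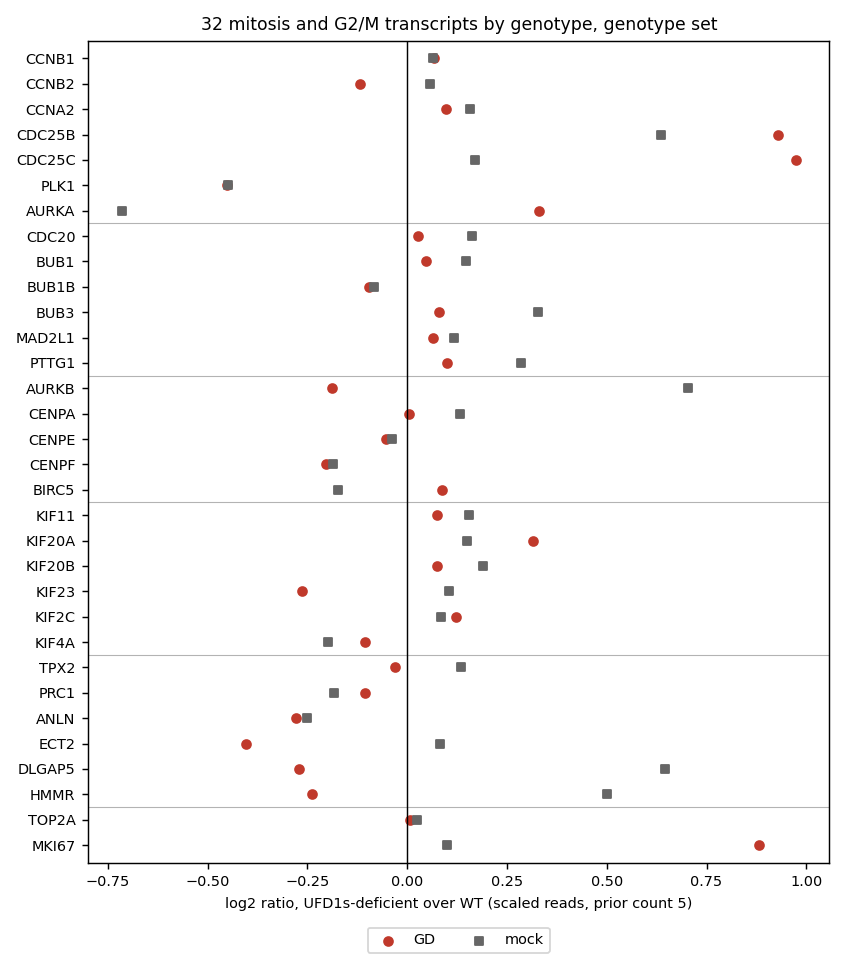
Log2 ratio of UFD1s-deficient over WT cells for the 32 shared members in GD and in mock, 1 library per genotype and condition. PLK1 lies at -0.45 in both conditions, and TOP2A lies at 0.0072 in GD and 0.025 in mock.

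Whether the GD response differed by genotype was tested with a genotype by treatment term, which takes the WT GD response as alike in both sets. The set by treatment term was called for 17 members, so the set difference enters both this estimate and its error. edgeR called 0 of 32 members and 0 of all 10368 transcripts, so 0% is the background, with 1 member and 123 transcripts at an unadjusted p under 0.05. DESeq2 called 0 members. The member was MKI67, with a difference of 1.53 on the log2 scale (SE 0.623), deficient minus WT. Its GD log2 ratios were -0.20 in deficient and -0.98 in WT cells of the genotype set. The stress-set WT ratio of -2.39 also enters the 1.53. The SE of this term was 0.243 to 0.335 for the 20 well-counted members, so small differences were not detectable.

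The other genes of these pathways were read from 6 lists of kinetochore, cohesin, APC/C, spindle, entry-control and cell cycle regulator genes, with 122 tested transcripts outside the members. In GD 8 rose and 17 fell by edgeR (13.9% lower, near the 11.1% of all transcripts), and their median log2 change was -0.063. Among them CENPH, of the inner kinetochore, rose by 0.64 (SE 0.0989, edgeR adjusted p = 0.00281), and CENPI fell by 0.53. ESPL1 (separase), which cuts cohesin, fell by 0.51, TACC3, a spindle protein, by 0.62, and the APC/C subunit ANAPC13 by 0.95. FBXO5 (EMI1), an APC/C inhibitor, rose by 0.75, RBL1 (p107), a DREAM subunit, by 0.69, and the cohesin subunit STAG1 by 0.44. E2F2 fell by 0.67, with 561 reads in stress-set GD and 1415 in mock, a scaled log2 ratio of -0.77.

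In these lists too the set by treatment term was called in 1 direction, lower for 25 of 122 (20.5%, where 5.63% of all were) and higher for 0 (4.81% of all), with a median of -0.22. CDCA3, which helps to trigger mitotic entry, differed by -1.14 (SE 0.182, edgeR adjusted p = 2.61e-04), with 299 reads in stress-set GD and 992 in mock. Its scaled GD log2 ratios were -1.16 in the stress set, -0.081 in deficient and -0.014 in WT cells. SPAG5 (astrin), of the spindle, differed by -0.89 and the condensin subunit NCAPH by -0.65. MYBL2 (B-MYB), which acts with the MuvB core on these promoters, differed by -0.45 (SE 0.0850, edgeR adjusted p = 0.00120), with GD log2 ratios of -0.26 in the stress set, 0.18 in deficient and 0.18 in WT cells. In 31 DNA replication transcripts, set beside them as another phase of the cycle, 3 rose and 8 fell in GD by edgeR (9.75% and 11.1% of all). The set term was called higher for 3 and lower for 5 of the 31, with a median of -0.10. Their stress-set GD log2 ratio had a median of -0.24 over the 24 rows with at least 50 reads, against -0.22 for the 122, taken with no read minimum. With the minimum of 50 reads the medians of the 6 lists ran from -0.45 to -0.087. A lower stress-set GD median was thus not particular to these lists. In TG, FBXO5 (331 reads in TG and 153 in mock), GMNN (296 in TG and 129 in mock), a brake on replication licensing, and MIS12 (55 in TG and 10 in mock), of the kinetochore, were past 2-fold higher, and 0 of the 122 were lower. Of all 9116 rows with at least 50 reads, 4.73% were higher and 3.31% lower in TG. Between genotypes 1 of the 122 was called (0.82%, where 1.11% of all transcripts were), so the share is not above the background. It was RBL2 (p130), the DREAM pocket protein, lower in deficient cells by a log2 difference of -0.64 (SE 0.115, edgeR adjusted p = 0.0381).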

How the data were processed

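Per the labels' protocols, RNA was depleted of ribosomal RNA before sequencing. The authors deposited whole-number read counts per RefSeq transcript, not normalized. Tools listed in the submitters' processing notes are Bowtie2, bedtools, cutadapt and FastQC, with hg19 as the human build. How reads were assigned to transcripts, and whether by strand, is not given in the sources used here, so reads of overlapping or antisense genes cannot be told apart. The log2 ratios and p-values that the authors deposited for the genotype comparison were used only where named. The N2a mouse libraries were not used here.

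Counts of the 6 HEK293T mock and GD libraries were tested with edgeR 4.0.16 in R 4.3.3 (quasi-likelihood, TMM factors, default expression filter, Benjamini-Hochberg adjustment at 0.05) with set, genotype and treatment as terms and 2 residual degrees of freedom, or 1 with an interaction term. DESeq2 1.42.0, other scalings and filters, and leaving out libraries were the alternatives. Nothing in the labels says that libraries came from separate cultures, and each set has a condition once. The p-values therefore measure how far responses differ between pairs, a spread that may be technical and that edgeR pools in part over transcripts. For the set by treatment term and for fits of the genotype set alone, this spread comes from the genotype set only. Ratios of single libraries used CPM scaled by TMM, prior count 5, and a change meant 2-fold with 50 reads in the higher library. Intervals and floors cover counting error only. Scripts were tested on simulated counts.

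The text names all 38 members and, of each other list, up to 4 called genes with the largest change in a comparison, or genes past 2-fold in TG, with MYBL2 as a regulator. Not every gene this rule allows is printed. The members and lists were chosen with earlier results of these data known. Promoter windows came from RefSeq (GRCh38.p14), which is not the build of the submitters' notes, and matched by symbol for 31 of 38 members.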

Additional observations from a re-analysis of the deposited data

Results flagged for a closer look

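The GD response of 17 members differed between the stress set and the genotype set by edgeR's set by treatment term. The differences, stress set minus genotype set on the log2 scale, were -0.51 for CCNB1, -0.56 for CCNB2, -0.78 for CCNA2 and -0.68 for PLK1 among the entry genes. They were -0.45 for CDC20, -0.57 for BUB1, -0.71 for BUB1B and -0.50 for MAD2L1 among the checkpoint genes. Kinesins and kinetochore genes differed by -0.35 for KIF11, -0.74 for KIF20A, -0.74 for KIF4A, -0.60 for CENPE and -0.67 for CENPF. TPX2 differed by -0.59, ANLN by -0.60, TOP2A by -0.41 and MKI67 by -1.96. Beside these values, RNA45SN5, the ribosomal precursor, held 10.7% of stress-set GD reads and 7.73% of stress-set mock reads, and its part in the result was not tested.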

How the results depend on the processing

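In GD, 4 members and 2164 transcripts were called. Without set as a term the counts were 0 and 24, in the genotype set alone 12 and 4040, in the 4 WT libraries alone 2 and 490, and leaving out each library in turn 2 to 13 and 494 to 4039. For the genotype difference, 0 members and 115 transcripts were called, against 220 transcripts by DESeq2, 0 without set as a term, 5 members and 1942 transcripts in the genotype set alone, and 0 to 5 members and 5 to 1938 transcripts leaving out each library (5 without either deficient library, 1938 without the stress-set GD). The set by treatment term called 1083 transcripts by edgeR and 279 by DESeq2. It could not be refitted without 1 library, since no residual degree of freedom remains, and this holds for the genotype by treatment term too. The log2 changes of the 4 members called in GD and the 17 called for the set by treatment term kept their sign under every alternative run, and the cause of the lost calls was not tested. The labels give no replicate numbers, so no replicate block was fitted, and the set and genotype terms already set each GD library against the mock of its own set and genotype.

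With library totals alone the median of all rows (with 50 reads) was -0.17 in stress-set GD and -0.10 in TG, against -0.019 and 0.011 with TMM, and the members' medians were -0.63 and -0.37. In deficient GD it reversed the members' median to -0.041, against 0.024. At 1.5-fold in place of 2-fold the members past the rule numbered 7 in stress-set GD, 4 in TG, 3 in deficient GD, 3 in genotype-set WT GD, 2 for deficient over WT in GD and 4 in mock. For this and the alternatives that follow, the share of all rows is not given here, so the counts have no background. In genotype-set WT GD 1 member passed with library totals, with a prior count of 0.5 or with 10 reads as the minimum. In deficient GD 1 passed with 10 reads, and for deficient over WT in GD 1 passed with a prior count of 0.5. With transcripts in both tables alone, an alternative chosen after seeing the data, 0 passed for deficient over WT in mock, since FOXM1 is in 1 table. Depth limits the 12 rows with a mean under 1000 reads.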
